A study of Mus musculus with 54 samples.

Results

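The first 120 Mb of mouse chromosome 5 were divided into 480000 windows of 250 bp, of 10535096 windows in the whole table, and were chosen by position alone: every window of chromosome 5 that ended at or before base 120000000. Methylated DNA was captured from mouse intestine with an antibody against 5-methylcytosine (MeDIP) and sequenced, and the reads were counted per window on mm10. The strains carried 0, 1 or 2 copies of chromosome 5 from PWD/Ph (PWD), a strain derived from wild house mice. C57BL/6 (B6) had 0 copies. C5F1, an F1 of C57BL/6 and a chromosome substitution strain (CSS) for PWD chromosome 5, C1_5F1, the like F1 with a CSS for PWD chromosomes 1 and 5, and B6xPWD, the F1 of both parents, had 1 copy. C5, a chromosome substitution strain with PWD chromosome 5 on a B6 background, and PWD had 2 copies. Tissues were wild type mucosa, and normal mucosa and adenomas of mice carrying the Min allele of Apc (Apc Min), the tumour-causing allele that both of the latter tissues share. Mice were 15 to 19 weeks old. B6 had 4 wild type, 3 Apc Min normal and 5 adenoma libraries. C5, C5F1 and B6xPWD had 3 of each tissue, C1_5F1 had 2 normal and 2 adenoma libraries, and PWD had 3 wild type libraries.

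In mammals most CpG dinucleotides are methylated, and the unmethylated ones gather in CpG islands at gene starts. MeDIP captures a fragment more strongly the more methylated cytosines it holds, so a window gains counts with methylation, with CpG number and with the number of DNA copies. The reference genome comes from B6, so a PWD sequence that is missing, repeated or diverged also changes the counts of a window, and these causes cannot be told apart from methylation in the values below. Counts are given as CPM, the counts of a window scaled to the same autosomal total in every library.

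The gene starts that carry the results differ in their CpG content, and 5 of them are shown here to set that content beside the counts. The sequences are from RefSeq on GRCm38.p6, the same build as mm10, from 250 bases before to 50 bases after the start, 5′ to 3′ on the strand of the gene, with each CG in capitals. The start of Mvk, which encodes mevalonate kinase of sterol synthesis, holds 15 CG. It was captured weakly in B6 and strongly with the PWD chromosome. The start of Thegl, a gene known from testis, holds 27 CG and was captured less with it, as was that of Tmem233, a transmembrane protein gene, with 9 CG. The start of Tlr6, a receptor for bacterial lipopeptides, holds 7 CG, and that of Jakmip1, a microtubule-binding protein of neurons, holds 1.
Mvk, chr5:114444019-114444318, plus strand: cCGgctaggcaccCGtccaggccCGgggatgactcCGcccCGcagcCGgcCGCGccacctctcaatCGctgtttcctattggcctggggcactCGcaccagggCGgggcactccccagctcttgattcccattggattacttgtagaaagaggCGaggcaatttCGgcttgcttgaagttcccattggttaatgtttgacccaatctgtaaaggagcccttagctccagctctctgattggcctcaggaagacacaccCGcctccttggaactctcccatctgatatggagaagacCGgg
Thegl, chr5:77015773-77016072, plus strand: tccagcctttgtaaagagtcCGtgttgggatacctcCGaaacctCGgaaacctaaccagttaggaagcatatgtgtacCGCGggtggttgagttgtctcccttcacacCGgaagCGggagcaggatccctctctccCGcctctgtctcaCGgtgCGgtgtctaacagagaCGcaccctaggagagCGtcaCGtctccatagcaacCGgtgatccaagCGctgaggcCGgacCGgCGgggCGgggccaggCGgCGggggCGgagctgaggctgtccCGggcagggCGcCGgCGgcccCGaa
Tmem233, chr5:116083218-116083517, minus strand: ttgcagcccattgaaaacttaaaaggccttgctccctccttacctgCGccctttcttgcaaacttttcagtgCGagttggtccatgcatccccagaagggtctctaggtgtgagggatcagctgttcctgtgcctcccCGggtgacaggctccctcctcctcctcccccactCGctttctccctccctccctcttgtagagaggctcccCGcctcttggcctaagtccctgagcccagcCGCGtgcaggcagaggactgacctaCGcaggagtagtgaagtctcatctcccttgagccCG
Tlr6, chr5:64959999-64960298, minus strand: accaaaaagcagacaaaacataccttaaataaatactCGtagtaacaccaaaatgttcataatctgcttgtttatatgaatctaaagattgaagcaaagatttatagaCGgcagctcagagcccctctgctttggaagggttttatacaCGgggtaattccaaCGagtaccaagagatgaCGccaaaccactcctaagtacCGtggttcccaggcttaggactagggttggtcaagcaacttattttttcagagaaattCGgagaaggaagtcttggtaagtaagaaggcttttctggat
Jakmip1, chr5:37050607-37050906, plus strand: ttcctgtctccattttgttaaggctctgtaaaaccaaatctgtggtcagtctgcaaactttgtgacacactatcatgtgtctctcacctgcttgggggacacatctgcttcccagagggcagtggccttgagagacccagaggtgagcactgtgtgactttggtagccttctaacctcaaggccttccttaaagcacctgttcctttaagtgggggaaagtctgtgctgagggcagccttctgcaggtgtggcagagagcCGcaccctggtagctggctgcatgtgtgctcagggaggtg

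The MeDIP libraries held between 8358806 and 27842607 counts, with a median of 21581454. Between 291859 and 1005203 of them fell in these windows, with a median of 764032. Of the 480000 windows, 105017 had no CpG density score and held 1 read in all libraries together. Over the whole of chromosome 5, 22.8% of windows had no score, beside 1.82% to 5.25% on each of the other autosomes. The reason was not tested. A total of 41959 windows passed the filter on low counts and were tested among 1172069 autosomal windows. By CpG density, the tested windows were 4916 of 203533 with a score under 2, 17093 of 134210 with 2 to under 5, 17791 of 32942 with 5 to under 10, and 2159 of 4298 with 10 or more. The passing windows were therefore CpG-richer than the region. For library 11_6 of B6xPWD the MeDIP label names normal mucosa and its input label wild type mucosa, and the MeDIP label was followed. Nothing in the labels ties libraries to animals, so p-values measure the spread between libraries.

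With 2 PWD copies in place of 2 B6 copies, capture changed in both directions. In wild type mucosa, 9975 of the 41959 windows differed between 2 copies and 0 at an adjusted p under 0.05, by edgeR's quasi-likelihood test with Benjamini-Hochberg adjustment over all autosomal windows. Of these, 5145 rose (beside 2.69% of all autosomal windows) and 4830 fell (beside 7.17%). Together they are 23.8% of the region, beside 9.86% of all autosomal windows tested, a background that includes the other PWD chromosomes because PWD itself enters the comparison. C5 against B6 over the 3 tissues, where the labels place PWD DNA on chromosome 5 only, called 12511 windows, of which 6027 rose and 6484 fell. That is 29.8% of the region and 3.64% of all autosomal windows, of which 2.21% rose and 1.43% fell. The windows that rose had a median log2 difference of 1.37, and 1438 of them were at least 4-fold higher. Those that fell had a median of -1.40, and 1591 were at least 4-fold lower. In 1537 windows (3.66%) every one of the 9 C5 libraries was above all 12 B6 libraries, and in 1843 (4.39%) every one was below. Both counts were made in the region only, so no autosomal share stands beside them. The counts depended on the first number in the library labels, whose meaning the labels do not give and which B6 shares with other strains in 1 library only. With that number as a further factor, 765 windows of C5 against B6 were called (1.82%, beside 0.0933% of all autosomal windows), of which 105 rose and 660 fell, and 2923 for 2 copies in wild type mucosa (6.97%, beside 2.21%).

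Fewer windows were called with 1 copy of the PWD chromosome than with 2. With 2 copies, 3033 windows (7.23%) differed in Apc Min normal mucosa, beside 0.433% of all autosomal windows, and 4289 (10.2%) in adenomas, beside 0.639%. With 1 copy against 0, 634 windows were called in wild type mucosa (1.51%, beside 0.123%), 294 in Apc Min normal mucosa (0.701%, beside 0.0375%) and 653 in adenomas (1.56%, beside 0.091%). The 1-copy calls were mostly windows that rose: 576, 262 and 528 of them in the order given, beside 0.0948%, 0.0322% and 0.065% of all autosomal windows. The 2-copy calls were near even, with 1454 up and 1579 down in Apc Min normal mucosa (beside 0.23% and 0.203%). In adenomas 2195 rose and 2094 fell (beside 0.338% and 0.301%). How well a fall could be called with 1 copy was not tested. All of these comparisons share the B6 libraries of a tissue. The difference between the 1-copy and 2-copy effects was not tested. A factor for the label number left 1-copy calls of 16 (0.0381%, beside 0.00316% of all autosomal windows), 0 (beside 0.000768%) and 4 (0.00953%, beside 0.00213%). It left 2-copy calls of 126 in Apc Min normal mucosa (0.3%, beside 0.0161%) and 210 in adenomas (0.5%, beside 0.0252%). Of these 2-copy calls, 6 and 20 rose and 120 and 190 fell.

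The calls of the 3 tissues overlapped in part, and wild type mucosa had the most. Its 2-copy comparison took the mean of C5 and PWD, while Apc Min normal mucosa and adenomas had C5 alone. The counts are therefore not a like comparison of tissues. Of the 3033 windows called in Apc Min normal mucosa, 2861 (94.3%) were called in the same direction in wild type mucosa, and of the 4289 called in adenomas, 3855 (89.9%) were. Of the 9975 wild type calls, 28.7% were called in Apc Min normal mucosa and 38.6% in adenomas. Apc Min normal mucosa and adenomas shared 2277 calls, 75.1% of the former and 53.1% of the latter. In these pairs 0 windows were called in opposite directions. In all 3 tissues together, 1101 windows rose and 1138 fell. These overlaps were counted in the region only, so no autosomal share stands beside them. The difference between the 2-copy effect in adenomas and in Apc Min normal mucosa was tested itself and reached the threshold in 0 windows, beside 0% called over all autosomes. Before adjustment, 1395 windows of the region had a p under 0.05, beside 3.5% of all autosomal windows. Adenomas against Apc Min normal mucosa over the 5 strains also gave 0 calls in the region by edgeR, beside 0.000939% called over all autosomes. Before adjustment, 1804 windows had a p under 0.05, beside 4.23%. By limma-trend the counts of adjusted calls were 0 for the difference and 1 for adenomas against normal mucosa.

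In several of the named windows, capture followed the number of PWD copies. The windows and gene starts named here and below were picked for the lowest p in these same libraries. Their small p-values and the lack of overlap between the strains compared follow from that choice and are no separate support. The window chr5:64384501-64384750, of CpG density 4.75, lies 33015 bp outside Tbc1d1, which encodes a Rab GTPase-activating protein of glucose transport. Its capture was at most 0.128 CPM in the 12 B6 libraries, with a median of 0.0472 and a lowest value of 0. It was 0.285, 0.697 and 0.906 CPM (lowest, median, highest) in C5F1, 0.408, 0.666 and 0.747 in B6xPWD, and 0.543 to 0.958 in the 4 C1_5F1 libraries. The 9 C5 libraries had 1.05, 1.10 and 1.49 CPM, and the 3 PWD libraries 1.26, 1.38 and 1.40 CPM. No value of the 0-copy, 1-copy and 2-copy strains overlapped. C5 was above B6 by 4.93 ± 0.278 (log2, SE; edgeR adjusted p = 8.846e-25).

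Windows in or near 2 other genes rose as well. At chr5:99118001-99118250, 80626 bp outside Prkg2 (a cGMP-dependent protein kinase), the highest B6 value was 0.134 CPM. The C5F1 libraries ran from 0.356 to 0.853, C5 from 0.968 to 1.57 and PWD from 1.10 to 1.42. At chr5:104059251-104059500, inside Nudt9, an ADP-ribose pyrophosphatase gene, B6 reached 0.241 CPM at most and C5 had at least 1.14. There the 1-copy strains averaged 0.890 (C5F1), 0.864 (B6xPWD) and 1.254 CPM (C1_5F1). The C1_5F1 mean lay above the lowest C5 library, so the 1-copy and 2-copy strains overlapped. The B6 and C5 libraries did not overlap in either window. These differences of C5 from B6 were 5.32 ± 0.316 near Prkg2 and 4.11 ± 0.241 in Nudt9 (log2, SE), with edgeR adjusted p-values of 1.368e-23 and 5.748e-23. Once the label number entered the model, the windows near Tbc1d1, Prkg2 and Nudt9 kept their direction and no longer passed (edgeR adjusted p = 0.0780, 1 and 0.944). Their log2 differences were then 7.31, 3.30 and 1.82.

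The windows that fell showed the mirror image. At chr5:54264501-54264750, 143444 bp outside Stim2, the gene of an endoplasmic reticulum calcium sensor, B6 libraries had 1.14, 1.48 and 1.72 CPM (lowest, median, highest). C5F1 had 0.373, 0.655 and 0.926, and B6xPWD had 0.396, 0.613 and 1.06. C5 had 0, 0.0995 and 0.297, and PWD had 0.0394, 0.0933 and 0.129. All 1-copy libraries lay between the lowest B6 library and the highest C5 library. C5 was below B6 by a log2 difference of -3.92 ± 0.235 (edgeR adjusted p = 1.611e-22).

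At chr5:67246501-67246750, 13815 bp before Tmem33, an endoplasmic reticulum membrane protein gene, capture was nearly lost. B6 libraries ran from 0.775 to 1.37 CPM over 278 counts. Over 9 C5 libraries there was 1 count, and over 3 PWD libraries 0. Against a floor of 3 counts over the PWD libraries, B6 was at least 25.3-fold higher than PWD. C5F1 had 0.272 to 0.810 CPM and B6xPWD 0.283 to 0.680, so no library of theirs overlapped the 2-copy strains. The highest C5F1 library and the highest of the 4 C1_5F1 libraries, at 0.821 CPM, reached into the B6 range.

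Other windows that fell lay in or near genes of hearing, autophagy and lipoprotein uptake. In Otof (otoferlin of inner ear synapses), at chr5:30426751-30427000, C5 libraries had at most 0.0847 CPM and B6 at least 0.904. In Atg9b (an autophagy membrane protein), at chr5:24390501-24390750, C5 had at most 0.348 CPM and B6 at least 1.35. At chr5:35089751-35090000, 1490 bp outside Lrpap1, a chaperone of lipoprotein receptors, C5 had at most 0.212 CPM and B6 at least 0.887. In each of these windows B6 and C5 did not overlap, and the edgeR adjusted p of C5 against B6 was 2.916e-22, 1.494e-21 and 1.242e-21 in the order given.

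A position was given to each library to read copy number over many windows at once. Windows that differed at least 2-fold between PWD and B6 wild type mucosa were summed, 5134 higher and 3497 lower in PWD, and each sum was set to 0% at the B6 wild type mean and 100% at the PWD wild type mean. The libraries of these 2 groups chose the windows and set the scale, so they carry no result. Of the others, B6 Apc Min libraries stood at 6.01% ± 2.85 (SD, n = 8), between 2.30% and 10.0%. C5F1 Apc Min libraries were at 48.6% ± 2.49 (n = 6), B6xPWD Apc Min libraries at 48.9% ± 1.63 (n = 6), C1_5F1 at 46.7% ± 0.619 (n = 4) and C5 at 86.6% ± 2.07 (n = 9). The 3 dose classes did not overlap in any library. On the autosomes other than 1 and 5 together, C5 stood at 9.14% ± 1.99 (n = 9), beside 4.92% ± 1.39 in B6 Apc Min libraries (n = 8). There C5F1 Apc Min libraries were at 9.17% ± 1.96 (n = 6) and C1_5F1 at 3.31% ± 0.839 (n = 4).

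**Figure D1:**
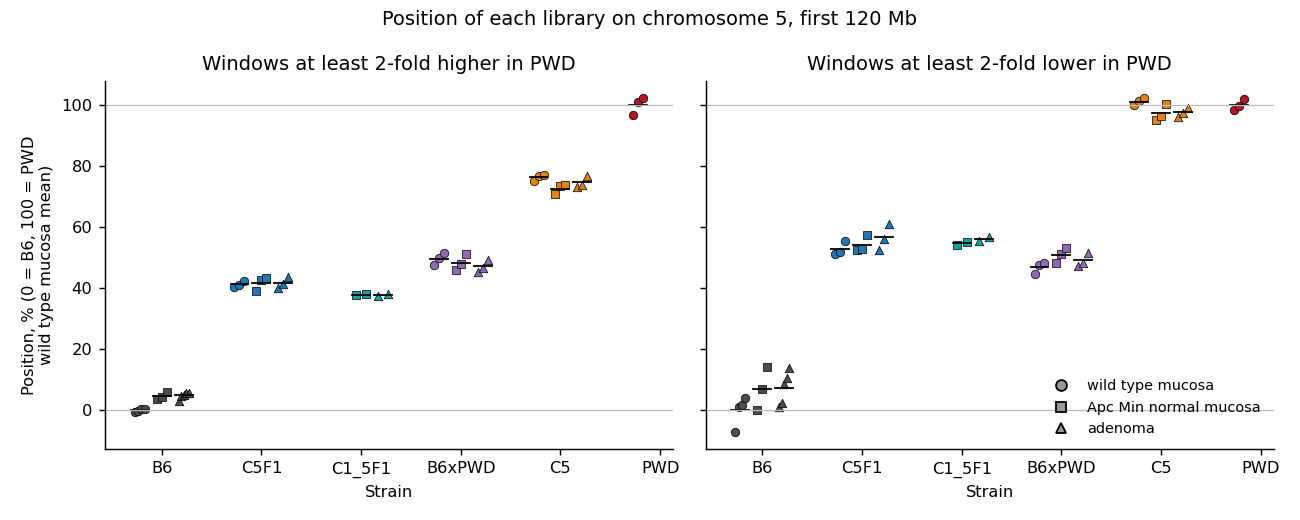
Position in percent (vertical axis) of each MeDIP library between the B6 (0%) and PWD (100%) wild type means by strain, with the windows that PWD has at 2-fold or more of B6 on the left and those at 2-fold or more below B6 on the right; each point is 1 library, its shape gives the tissue, and bars are group means. The C5 libraries average 74.6% on the left and 98.7% on the right.

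The position of C5 differed between both sets of windows. Since the PWD libraries that set 100% also chose the windows, its distance from 100% is no result. It was at 74.6% ± 2.13 over the windows higher in PWD and 98.7% ± 2.49 over those lower in PWD (SD, n = 9). C5F1 showed the same split in Apc Min libraries, with 41.7% ± 1.81 over the higher windows and 55.5% ± 3.48 over the lower ones (n = 6), while B6xPWD had 47.8% ± 2.16 and 49.98% ± 2.26 (n = 6). The mean of both sets did not differ between C5F1 and B6xPWD beyond the spread (difference -0.307 points, exact two-sided permutation p = 0.816, smallest possible 0.00217). Its sign turned without library 11_6 (0.338 points, exact p = 0.786). By set, C5F1 was lower by -6.09 points over the higher windows (exact p = 0.00217) and above by 5.47 points over the lower windows (exact p = 0.00866). Over the 5 tests of this kind the Benjamini-Hochberg values of these 2 were 0.0108 and 0.0217. The windows were chosen in PWD, a parent of B6xPWD, so the differences by set cannot be told apart from that choice. The C5F1 and B6xPWD libraries share only label number 16, and the sets were not compared within it. C1_5F1 was below B6xPWD by 2.19 points (exact p = 0.0143, adjusted over 5 tests 0.0238), and C5F1 minus C1_5F1 was 1.89 points (exact p = 0.195, adjusted 0.244).

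Among libraries with 16 as the first number of their label, a number that 5 strains share, the same order was seen. The 1 B6 library was at 2.35%, the 3 C5F1 libraries were at 45.98% to 46.34%, the 3 B6xPWD libraries at 47.52% to 48.11%, the 3 C5 libraries at 85.01% to 87.44% and the 1 PWD library at 97.48%. The B6 and PWD libraries of that number belong to those that set the scale.

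Along the chromosome the position was even. Over 24 bins of 5 Mb, C5 lay between 84.4% and 90.6% on average, apart from the bin from 110 to 115 Mb, where it was at 80.0%. Without a stretch of 40 kb described below, C5 stood at 86.8% in that bin and C5F1 moved from 44.2% to 48.3%. At its far end the region was cut in C1_5F1. Between 119 and 120 Mb C1_5F1 was at 44.1% ± 4.74 (SD, n = 4), and between 120 and 121 Mb it was at 17.3% ± 4.00, between 121 and 122 Mb at 8.71% ± 6.82. C5F1 stayed at 47.7% ± 2.72, 42.4% ± 3.21 and 49.1% ± 3.02 (n = 9) over the same 3 steps. The 120 Mb limit of the region therefore lies next to the place where C1_5F1 leaves the 1-copy level.

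**Figure D2:**
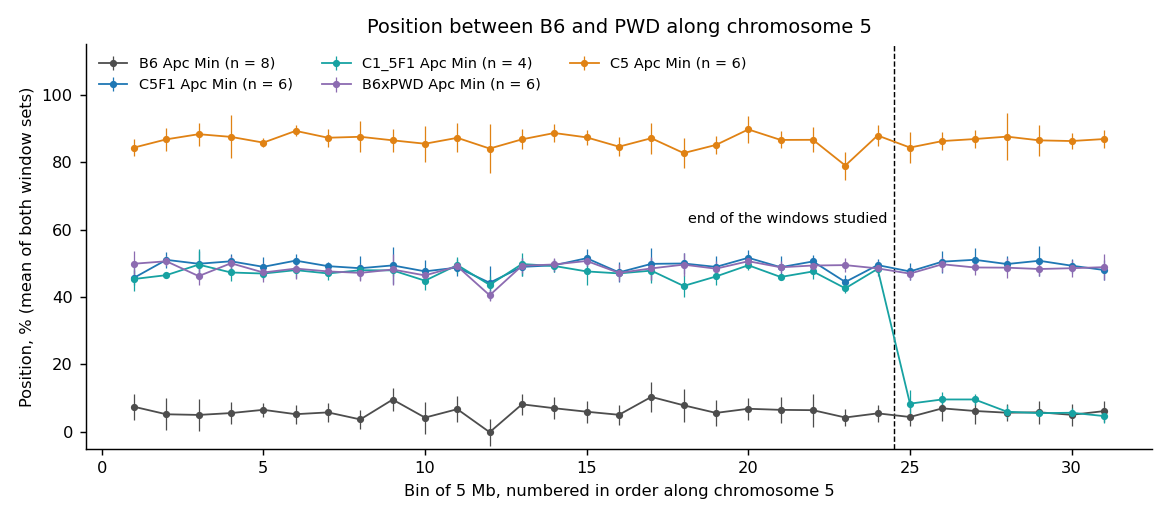
Mean position in percent (0% is B6, 100% is PWD wild type) of the Apc Min libraries of each strain in bins of 5 Mb, numbered in order along chromosome 5, with the SD between libraries; the dashed line marks 120 Mb. C5 dips in the bin from 110 to 115 Mb, and C1_5F1 leaves the level of the other 1-copy strains after the dashed line.

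The direction of change differed with CpG density. Among windows of C5 against B6 with a score under 2, 26.9% rose and 3.34% fell. With 2 to under 5 these shares were 16.8% and 14.3%, with 5 to under 10 they were 9.36% and 19.6%, and with 10 or more 8.15% and 18.2%. The background on the other autosomes had the same tilt at a lower level: 5.91% rose and 0.0765% fell under 2, and 0.375% rose and 1.88% fell at 10 or more. Tested windows within 1000 bp of a gene start were called less often (21.9% of 552) than windows elsewhere in genes (28.7% of 23607) or outside genes (31.6% of 17800), and this order was not tested. The position of C5 also differed between CpG classes. It was 88.1% ± 3.49 at a score under 2 and 79.6% ± 7.20 at 10 or more, a difference of -8.51 points (exact two-sided sign-flip permutation test over 9 libraries, p = 0.00781). Taken as medians over windows, the difference was -7.48 points and no longer passed (exact p = 0.0781). Among the 3 C5 libraries with label number 16 it was -18.5 points, and among those with label number 12 it was -3.54. The permutation test covers only the spread between C5 libraries. It cannot separate CpG density from the choice of windows and scale, which rested on B6 and PWD libraries. Over the windows higher in PWD, C5 was at 83.5% ± 7.89 under 2 and 56.8% ± 19.8 at 10 or more (156 windows). Over those lower in PWD, C5 was at 92.8% ± 5.33 and 102.4% ± 6.40 (131 windows). The difference without the stretch described below was not tested.

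**Figure D3:**
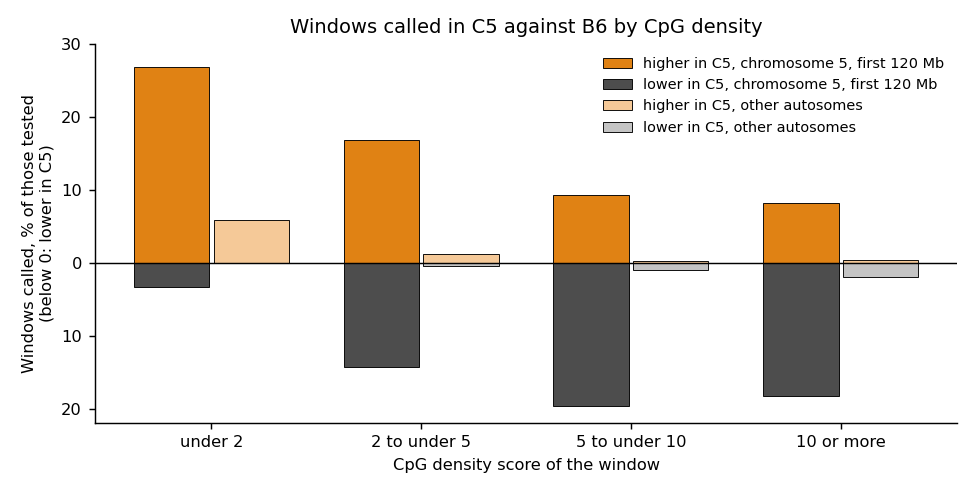
Percent of tested windows that rose (bars above 0) or fell (bars below 0) in C5 against B6 over 3 tissues, by CpG density class, in the region and on the other autosomes (edgeR adjusted p under 0.05). In the region 26.9% of the sparsest windows rose and 18.2% of the densest fell.

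Sums over 5 Mb bins changed little. The fit called 10 of the 24 bins lower in C5 than in B6 and 0 higher, beside 33.3% of all autosomal bins called and 13.1% called lower. These directions rest on the scaling, since the fit scales each library by its bin sums and CPM by its windows. In 6 of the 10 bins the mean CPM of C5 was above that of B6. With the factors of the windows, an alternative added after seeing the data, 2 bins were called, 1 higher and 1 lower, and the median log2 difference of the bins moved by 0.0614. The lowest values were at 100 to 105 Mb (log2 difference -0.110 ± 0.0147, edgeR adjusted p = 3.093e-06), 105 to 110 Mb (-0.0938 ± 0.0106, adjusted p = 1.604e-07) and 95 to 100 Mb (-0.0763 ± 0.0244, adjusted p = 0.0175). With the factors of the windows the bin from 100 Mb still passed, and those from 105 and 95 Mb did not (-0.0315 and -0.0143, edgeR adjusted p = 0.191 and 0.642). At 100 to 105 Mb the B6 libraries had 2166 to 2378 CPM and the C5 libraries 2039 to 2349, which overlap. The highest values, none of which passed the threshold, were at 55 to 60 Mb (0.169 ± 0.0684, adjusted p = 0.0551), 80 to 85 Mb (0.122, adjusted p = 0.172) and 10 to 15 Mb (0.104, adjusted p = 0.181).

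Split by CpG class, the bins moved apart. All 24 bins of windows with a score under 2 rose in C5, with a median log2 difference of 0.336, and so did all 471 such bins of the other autosomes, with a median of 0.232. Of the bins with 5 to under 10, 22 of 24 fell (median -0.246), beside 368 of 470 elsewhere (median -0.122). Of those with 10 or more, 15 of 24 fell (median -0.226), beside 114 of 471 elsewhere (median -0.133). In all, 61 of 96 sums were called, 24 higher and 37 lower, beside 52.1% over the autosomes. With the factors of the windows 25 were higher and 35 lower. After adding the label number as a factor, 0 bin sums were called in either form, both in the region and over all autosomes.

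At gene starts, windows within 1000 bp were summed for 831 protein-coding genes of the region, of which 446 had enough counts. C5 differed from B6 over 3 tissues at 73 of the 446 (16.4%), beside 1.59% of 16002 autosomal gene starts. Of these, 26 rose (beside 0.644%) and 47 fell (beside 0.95%). The median log2 difference of all 446 was -0.0166, with 214 above 0. In wild type mucosa 2 copies differed from 0 at 63 gene starts (14.1%, beside 4.71%), in Apc Min normal mucosa at 15 (beside 0.244%) and in adenomas at 23 (beside 0.394%). With the factors of the windows 30 rose and 38 fell. Adding the label number left 11 of the 446 gene starts of C5 against B6, beside 15 of 16002 over all autosomes. Windows within 2000 bp gave 131.

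Mvk and its divergent neighbour Mmab, which encodes the enzyme that makes adenosylcobalamin, showed the largest gains. Both start close to each other on opposite strands, so their windows largely coincide. At the Mvk start shown above, the 12 B6 libraries had 0.131, 0.352 and 0.484 CPM (lowest, median, highest). C5F1 had 3.89, 5.68 and 7.91, C1_5F1 6.52 to 8.37, B6xPWD 9.74, 12.5 and 13.2, C5 8.36, 13.3 and 16.6, and PWD 21.5, 23.0 and 24.8 CPM. B6 did not overlap any other strain, and B6xPWD, with 1 copy, overlapped C5, with 2. C5 was above B6 by 5.18 ± 0.148 (log2, SE; edgeR adjusted p = 1.098e-38). B6xPWD was above C5F1 by 1.08 (adjusted p = 1.309e-12), and PWD above C5 by 0.90 (adjusted p = 5.016e-05).

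The single window with the lowest p in the region, chr5:114443751-114444000 in Mmab, had a CpG density of 21.3. It held 0 counts in all 12 B6 libraries. The C5F1 libraries had 0.960, 1.61 and 2.00 CPM (lowest, median, highest), the B6xPWD libraries 2.34, 3.25 and 4.14, the C5 libraries 1.43, 3.51 and 4.25 and the PWD libraries 5.51, 5.88 and 6.58. Capture here did not follow the number of PWD chromosome 5 copies. The 1-copy B6xPWD averaged 3.27 CPM and the 2-copy C5 3.11, and their libraries overlapped. Whether the DNA of the window itself was present in more copies in some strains was not tested. Against a floor of 3 counts over the B6 libraries, C5 was at least 264-fold, B6xPWD at least 278-fold and C5F1 at least 132-fold higher than B6. Its call was lost with the label number as a factor (edgeR adjusted p = 1), at a fitted log2 difference of 8.42. At the windows at 114444501 in Mvk and 104693501 in Gm20385, B6xPWD also averaged at or above C5 (2.019 against 2.014 and 1.075 against 0.6263 CPM).

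The starts of Jakmip1 and Tnip2 also rose. At Jakmip1 the B6 libraries had 0.438, 0.903 and 1.67 CPM, C5F1 1.38, 1.72 and 1.78, C5 1.91, 2.28 and 2.64, and PWD 1.81, 2.24 and 2.40. C5 and B6 did not overlap, and the log2 difference was 1.18 ± 0.134 (edgeR adjusted p = 1.191e-09). At Tnip2, an inhibitor of NF-kappa-B signalling, B6 had 0.393 to 0.885 CPM and C5 0.879 to 2.66, which overlap at their edge (log2 difference 1.23 ± 0.162, adjusted p = 1.117e-07). Tnip2 no longer passed with the label number as a factor (1.30, edgeR adjusted p = 0.775), and Jakmip1 no longer passed with windows within 2000 bp (0.302, adjusted p = 0.103).

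Among the starts that fell, Thegl had the largest change with clear levels. B6 libraries had 1.40, 2.06 and 2.31 CPM, C5F1 0.465, 1.00 and 1.36, B6xPWD 0.493, 0.835 and 1.02, C5 0.0995, 0.180 and 0.381, and PWD 0.0862, 0.140 and 0.276. The 3 dose classes did not overlap, apart from C1_5F1, whose highest library at 1.41 CPM touched the lowest B6 library. The log2 difference of C5 from B6 was -3.22 ± 0.197 (edgeR adjusted p = 7.072e-21). For 2 copies against 0 it was -3.65 in wild type mucosa (mean of C5 and PWD). With C5 alone it was -2.46 in Apc Min normal mucosa and -3.46 in adenomas.

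Tmem233 and Rnf212 fell as well. At Tmem233 the B6 libraries had 1.22, 1.89 and 2.95 CPM, C5F1 0.746, 0.978 and 1.54, C5 0.106, 0.560 and 0.805 and PWD 0.280, 0.388 and 0.512. C5 did not overlap B6 (log2 difference -1.98 ± 0.178, edgeR adjusted p = 2.287e-13). At Rnf212, a gene of meiotic crossing over, B6 had 3.81 to 7.38 CPM, C5 0.873 to 3.36 and PWD 2.80 to 4.34 (log2 difference of C5 from B6 -1.58 ± 0.137, adjusted p = 6.070e-14). There 2 of the 3 PWD libraries lay above every C5 library.

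Vamp9, a vesicle-associated membrane protein gene by name, fell by a log2 difference of -3.73 ± 0.392 (adjusted p = 4.307e-11), from 0.336 to 1.11 CPM in B6 to at most 0.146 in C5. Gm21671 rose and Gm21663 fell (log2 differences 2.59 ± 0.305 and -5.81 ± 0.509). These are predicted genes whose starts lie next to each other near 25.9 Mb and share a run of 94 identical bases, so reads could be counted at either, and both are uncertain.

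**Figure D4:**
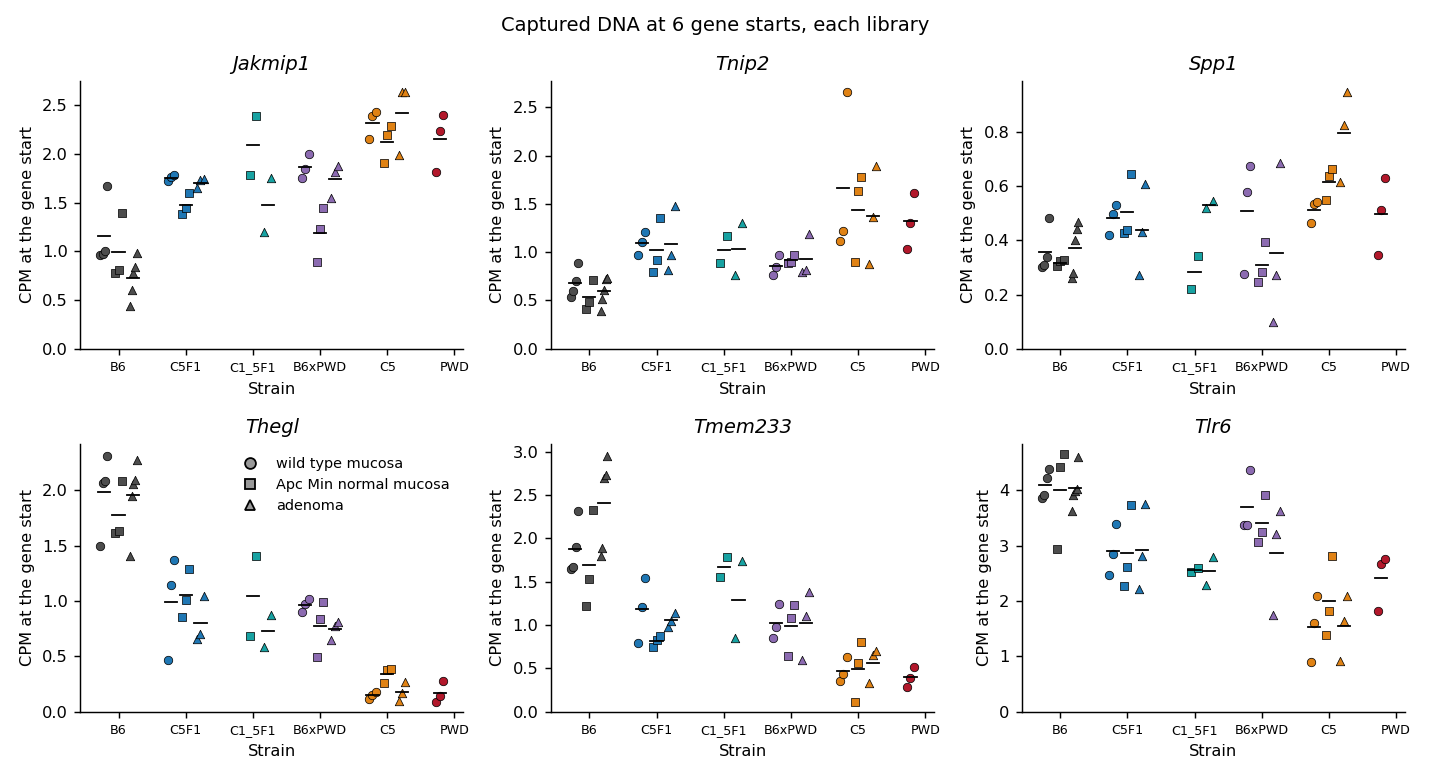
CPM of every MeDIP library at the starts of Jakmip1, Tnip2, Spp1, Thegl, Tmem233 and Tlr6 by strain; each point is 1 library, its shape gives the tissue, and bars are group means. At Thegl the B6 libraries sit between 1.40 and 2.31 CPM and the C5 libraries at or under 0.381, and at Jakmip1 C5 sits above B6.

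Over the gene lists by role, 11 of 84 tested members were called (13.1%), beside 16.4% of all tested gene starts of the region. Of 12 tested developmental and intestinal genes, 0 passed in C5 against B6 by edgeR, with 3 at an unadjusted p under 0.05. They hold transcription factors and other genes, including Hopx, Gsx2 and the stem cell marker Prom1. Their median log2 difference was 0.19, beside -0.0166 over all 446. Hopx had 0.40 ± 0.140 (adjusted p = 0.136) and Gsx2 0.74 ± 0.272 (adjusted p = 0.164). Of 7 growth factors and receptors (median -0.24), 1 passed: Epgn, a ligand of the EGF receptor, fell by 1.28 ± 0.291 on the log2 scale (adjusted p = 0.00569), while Tgfbr3 had -0.94 ± 0.302 (adjusted p = 0.0961). The label number as a factor ended the call of Epgn (-1.57, adjusted p = 0.867) and turned Tgfbr3 to 0.227.

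Among metabolic genes 5 of 16 were called, 3 higher and 2 lower, with a median of -0.18. Mvk and Mmab, which share most of their windows, are 2 of these 5. Mvk, Mmab and Slc2a9, a urate transporter (0.86 ± 0.132, adjusted p = 4.807e-06), rose. Afp, the fetal serum protein (-0.66 ± 0.154, adjusted p = 0.00760), and Ppargc1a, a coactivator of mitochondrial genes (-0.94 ± 0.223, adjusted p = 0.00987), fell. Of 18 chemokine and immune genes (median -0.0366) only Tlr6 passed. Its start had 2.94, 4.01 and 4.66 CPM in B6 and 0.901, 1.64 and 2.81 in C5, without overlap (log2 difference -1.36 ± 0.154, adjusted p = 1.009e-09). Cxcl2 had -0.56 ± 0.219 (adjusted p = 0.203). In the model with the label number Tlr6 did not pass (-0.960, edgeR adjusted p = 0.351) and Cxcl2 turned to 0.320.

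Of 9 cell cycle, repair and chromatin genes (median 0.102) 0 passed by edgeR and 4 had an unadjusted p under 0.05, with Xrcc2 of recombination repair at 0.84 ± 0.246 (adjusted p = 0.0594) and Chek2, a checkpoint kinase, at 0.66 ± 0.276 (adjusted p = 0.240). Of 12 neuronal receptors and channels (median -0.0383), Cnga1 of photoreceptors rose (0.50 ± 0.138, adjusted p = 0.0380) and Gabra2 of inhibitory synapses fell (-0.99 ± 0.247, adjusted p = 0.0166). Of 10 bone and casein genes (median 0.117), Spp1, osteopontin, rose (0.76 ± 0.204, adjusted p = 0.0331) and Csn1s1, a casein gene, fell (-1.36 ± 0.315, adjusted p = 0.00714). These values are at low counts: the means of Spp1 were 0.354 CPM in B6 and 0.642 in C5. Cnga1, Gabra2, Spp1 and Csn1s1 no longer passed with the label number as a factor, at log2 differences of 0.992, -0.503, 0.702 and -1.62, and the first 3 of them did not pass by DESeq2. Xrcc2 passed with the factors of the windows (0.91, edgeR adjusted p = 0.0301). With windows within 2000 bp Spp1 turned to -0.0316 and Chek2 to -0.0347.

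The 2-copy strains differed from each other in few windows. PWD against C5 in wild type mucosa gave 718 windows (1.71%), beside 17.7% of all autosomal windows, where the 2 strains have different chromosomes. Of these, 640 were higher in PWD, beside 6.43%. B6xPWD against C5F1 over 3 tissues gave 475 (1.13%, beside 8.53%), of which 406 were higher in B6xPWD, beside 4.6%. By limma-trend PWD against C5 gave 591 windows with all libraries, 275 without PWD library 16_9, 294 without PWD library 11_2 and 1053 without C5 library 16_1. With the label number as a factor the edgeR counts were 1227 (2.92%, beside 16.4%) and 1037 (2.47%, beside 6.86%).

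The lowest p of both comparisons was a window of the CpG island type at Ppat, whose enzyme opens purine synthesis. At chr5:76951001-76951250, of CpG density 24.6 and 452 bp from the gene start, the PWD libraries had 1.59, 2.15 and 2.56 CPM and the B6xPWD libraries 0.589, 1.01 and 1.82. The 9 C5 libraries held 2 counts together, the 9 C5F1 libraries 3 and the 4 C1_5F1 libraries 0, and B6 had at most 0.102 CPM. The strains with a whole PWD parent were thus apart from every strain with the substituted chromosome and from B6, without overlap (edgeR adjusted p = 5.750e-14 for PWD minus C5 and 1.568e-19 for B6xPWD minus C5F1).

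Slbp, which encodes the binding protein of histone mRNA ends, showed the same layout at chr5:33652001-33652250, of CpG density 28.6. PWD had 0.653, 0.862 and 1.02 CPM, and B6xPWD 0.250, 0.330 and 0.691. C5, C5F1 and C1_5F1 held 0 counts. Against the floor of 3 counts, PWD was at least 51.7-fold above C5 and B6xPWD at least 24.6-fold above C5F1 (edgeR adjusted p for PWD minus C5 = 1.379e-07).

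Other windows were intermediate. At chr5:69641001-69641250, 48669 bp from Gnpda2 of amino sugar metabolism, C5 had 0.254 to 0.825 CPM, PWD 1.70 to 1.85, C5F1 0.214 to 0.372 and B6xPWD 1.02 to 1.56. At chr5:23573001-23573250 in Srpk2, a splicing factor kinase, C5 had 0.405 to 0.746 CPM, PWD 1.54 to 1.72, C5F1 0.0923 to 0.604 and B6xPWD 1.27 to 1.87. In both, the 1-copy B6xPWD libraries lay above all libraries of 2-copy C5. Fewer windows went the other way, such as chr5:37818501-37818750, 1741 bp outside Msx1, a homeobox gene, where B6xPWD was below C5F1 by a log2 difference of -1.99 ± 0.427 (edgeR adjusted p = 7.181e-04). That call was lost with the label number as a factor (-1.59, adjusted p = 0.108).

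A 40 kb stretch at chr5:114405001-114445000 stood apart by size. It was chosen after its values were seen, as the run of 5 kb tiles around the longest run of high 10 kb tiles in which the PWD mean was at least 2 times the B6 mean, and is described without a test. It covers the 3′ part of Ube3b, an E3 ubiquitin ligase gene, and Mmab, and ends just past the start of Mvk. Of 12000 tiles of 10 kb, 6 had C5 and PWD means at least 2 times B6 with at least 4 CPM in C5, and 4 of these 6 were consecutive, from 114410001 to 114450000. Capture per 10 kb relative to flanks of 100 kb on each side, which began 20 kb away, was 1.92 ± 0.137 in B6 (SD, n = 12), 3.43 ± 0.179 in C5F1 (n = 9), 3.40 ± 0.252 in C1_5F1 (n = 4), 4.85 ± 0.387 in C5 (n = 9), 5.34 ± 0.255 in B6xPWD (n = 9) and 7.75 ± 0.204 in PWD (n = 3). B6xPWD, with 1 copy, was above C5, with 2, on average, and their libraries overlapped, at 4.99 to 5.73 and 4.12 to 5.29.

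The stretch was also high without antibody. In the single input library, from a B6xPWD adenoma, the ratio was 4.63, from 575 counts in the stretch and 621 in the flanks. It gave 19.6 CPM per 10 kb in the stretch, where the median of the region was 3.41. No input library of another strain was used, so how much of the difference between strains is DNA copy number was not tested. Outside the stretch, 652 windows differed between PWD and C5 (1.56%) and 403 between B6xPWD and C5F1 (0.963%), and 12405 (29.7%) between C5 and B6. Without the stretch, C5F1 and B6xPWD still differed over the windows higher in PWD, by -3.99 points (exact permutation p = 0.00649). The limit from the choice of windows in PWD holds here too.

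**Figure D5:**
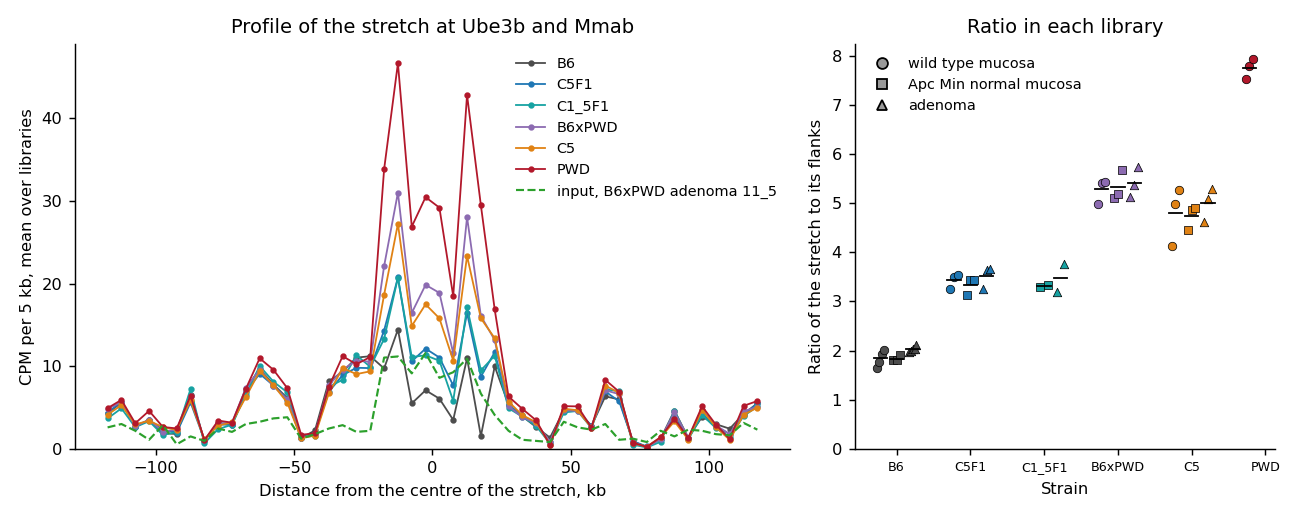
Left, mean CPM per tile of 5 kb in each strain against the distance in kb from the centre of the stretch, with the single input library dashed. Right, ratio of the stretch to its flanks in each library by strain, with group means as bars. PWD has the highest ratios, at 7.75 on average, and B6 the lowest, at 1.92.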

How the data were processed

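DNA captured by MeDIP from mouse intestine was measured in 46 libraries of 15 groups, a group being a strain in a tissue, and in 1 input library without antibody. The values are counts of reads per 250 bp window that the authors deposited as whole numbers. The CpG density score of each window is the authors' deposited value, and no source used here gives its scale. The submitters' processing notes name BWA and mm10, and no source used here gives the other settings. Where 2 strains differ in sequence, alignment to a B6 reference can lower the counts of PWD DNA.

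Autosomal windows that passed edgeR's filterByExpr with a minimum count of 10 were fitted with edgeR 4.0.16 in R 4.3.3 (quasi-likelihood, TMM scaling, 1 mean per group over all 46 libraries), with Benjamini-Hochberg adjustment over all windows and a threshold of 0.05. Sums over bins of 5 Mb, over CpG classes of these bins and within 1000 bp of gene starts were fitted the same way, with TMM factors computed on these sums. Gene positions come from RefSeq on GRCm38.p6. CPM uses the TMM-scaled autosomal total. Positions between B6 and PWD were compared by exact permutation tests. Leave-one-out fits of windows used limma 3.58.1 (trend on log2 CPM, prior count 2), and DESeq2 1.42.0 was an alternative for bins and gene starts.

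Named windows were those with the lowest p past the threshold, 5 per direction for 2 copies in wild type mucosa and for C5 against B6 over 3 tissues (at most 1 per nearest gene) and 3 per direction elsewhere. Named genes were the 5 starts per direction with the lowest p and the 2 lowest of each gene list. Named bins were the 3 highest and the 3 lowest. The windows, lists and tests were chosen with earlier results of these data known. The fits were tested on simulated data: for C5 against B6 in 1172069 windows, 38% of 100 windows changed 2-fold and 91% of 100 changed 4-fold were recovered, with 8 false calls of 137. The simulated counts had the same fixed spread in every window and no effect of label number or CpG density. Their false calls therefore do not measure the error rate in the real data. The other labelled MeDIP and input libraries were not analysed here.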

Additional observations from a re-analysis of the deposited data

Results flagged for a closer look

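In 16 of 119 groups of 4 to 10 libraries, 1 library stood apart from the rest of its group by Dixon's criterion, which chance meets in about 1 of 20 groups. Only B6 has groups of a strain in a tissue with more than 3 libraries, so all 16 are B6 groups. Over CpG-sparse windows (score under 2), 1 B6 adenoma library was at a position of 15.03% and the others between 4.603% and 6.329%.

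Several of these values are single reads in B6 libraries. The windows at 114444501 and 114444251 in Mvk, at 114444751 in Mvk, at 99118001 near Prkg2 and at 104693501 in Gm20385 each had 1 wild type library above 0, at 0.04423, 0.04423, 0.04423, 0.04828 and 0.0502 CPM, with the others at 0. Of the adenoma libraries, 1 had 0.05607 CPM at 114444751 in Mvk and 1 had 0.04266 CPM at the Slbp window, with the others at 0. At the window near Tbc1d1, 1 wild type library was at 0 CPM and the others between 0.04397 and 0.0502.

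At higher levels, 1 B6 adenoma library had 2.218 CPM at the Lrpap1 window, where the others had 0.8871 to 1.178. In wild type mucosa, 1 library had 0.9037 CPM at the Otof window (others 1.239 to 1.275) and 1 had 0.338 CPM at the Evc window at 37307501 (others 0.7475 to 0.8033). At gene starts, 1 B6 wild type library had 1.671 CPM at Jakmip1 (others 0.9656 to 1.004), 1 had 0.6156 at Vamp9 (others 0.4828 to 0.502) and 1 had 0.8691 at Csn1s1 (others 0.3958 to 0.4518). At Gm21671, 1 B6 adenoma library had 0.1663 CPM and the others 0 to 0.0438.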

How the results depend on the processing

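Of 399 alternative values of the summary results, 347 stayed within the limits set, 45 moved, 1 lost its call and 6 turned sign; of 2487 values of named features, 2344 kept their call and direction, 117 lost and 19 gained a call and 7 turned. A minimum count of 20, which tests fewer windows, gave 3591, 1398 and 1776 windows for 2 copies in wild type mucosa, Apc Min normal mucosa and adenomas, 398 and 431 for 1 copy in wild type mucosa and adenomas, 4423 for C5 against B6, 400 for PWD against C5 and 222 for B6xPWD against C5F1. With the label number as a factor these counts were 2923, 126 and 210 for 2 copies, 16, 0 and 4 for 1 copy (wild type, normal, adenoma), 765, 1227 and 1037, with 4 for adenoma against normal mucosa, 0 bins, 0 bins by CpG class and 11 gene starts. The 4 windows were 0.00953%, beside 0.0119% of all autosomal windows. In that fit B6 shared a label number with the other strains only through 1 wild type library, 16_8. The cause of the changed counts was not tested. Bins numbered 2 when scaled by the factors of the windows, chosen after seeing the data. Gene starts numbered 131 with windows within 2000 bp. By limma-trend 1195 windows were called for 1 copy in adenomas and 1 for adenoma against normal mucosa. The difference in position of C5 between CpG classes was -7.485 as medians and -18.45 for label number 16. C5F1 minus B6xPWD turned to 0.3769 points as medians, 0.3378 without library 11_6 and 0.7400 without the stretch at Ube3b and Mmab, the last chosen after seeing the data. The label number turned the bins from 10, 55 and 80 Mb to -0.04452, -0.0767 and -0.09769, Cxcl2 to 0.3203 and Tgfbr3 to 0.2271, and windows within 2000 bp turned Spp1 to -0.03155 and Chek2 to -0.03469.

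Leaving out 1 library at a time (windows by limma-trend) gave 6911 to 8846, 1458 to 1827 and 2711 to 3883 windows for 2 copies (wild type, normal, adenoma), 460 to 661, 152 to 382 and 806 to 1312 for 1 copy, 10532 to 11945 for C5 against B6, 0 to 0 for the adenoma minus normal difference, 275 to 1053 for PWD against C5 (275 and 294 without PWD 16_9 and 11_2, 1053 without C5 16_1), 254 to 424 for B6xPWD against C5F1 and 0 to 28 for adenoma against normal mucosa (28 without C1_5F1 adenoma 5_2, 3 or fewer in 6 other cases that moved). Bins ran from 8 to 15, bins by class from 59 to 66, gene starts from 58 to 77, the CpG class difference from -9.589 to -7.034 points and C5F1 minus B6xPWD from -1.078 to 0.3378. Counts moved by over 1.5 times without normal mucosa libraries 4_3 (1458), 9_2 (1569) or 12_4 (1494) for 2 copies, 4_3 (152), 9_2 (197) or 9_4 (202) for 1 copy, C5 adenomas 12_5 (2714) or 16_3 (2711), and B6 wild type 4_4 (460). No paired analysis was possible because no 2 groups compared share replicate labels.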
